A study of Mus musculus with 4 samples.

Results

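The genes described here are 39 genes of homologous recombination and of the Fanconi anaemia pathway, the routes by which a cell repairs DNA double-strand breaks from a sister copy and removes crosslinks between DNA strands. They were taken by symbol from a table of 36445 entries, and each symbol matched 1 entry. The samples were MC38 cells (a cell line of mouse colon cancer) given PBS (the vehicle) or 5-fluorouracil (5-FU) at 1 mM for 24 h, with 2 libraries of polyadenylated RNA per group. Every library came from the same line, and no allele or other agent is named in the labels. Values are FPKM, that is, fragments scaled by gene length and by the mapped total of the library, so levels can be compared between genes.

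Homologous recombination begins when a break is marked in chromatin and its ends are trimmed to single strands. BRCA1, PALB2 and BRCA2 then load a recombinase filament, which searches for and copies the sister strand, and nucleases and helicases take the joined molecules apart. In the Fanconi pathway a core complex attaches ubiquitin to the FANCD2 and FANCI pair at a crosslink, and repair then passes through recombination. The drug 5-FU resembles uracil, starves cells of thymidine and is built into nucleic acids.

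The PBS libraries held an estimated 41.3 and 41.6 M reads (M, mega), and the 5-FU libraries 20.8 and 20.6 M, so low genes are known less precisely after 5-FU. The PBS libraries stood further apart (median absolute log2 difference 0.271 over the 11644 tested genes) than the 5-FU libraries (0.0729), so the PBS pair sets most of the error. None of 8 epithelial markers, Epcam, Cdh1 and Krt8 among them, reached 1 FPKM in any library, while all 4 mesenchymal markers did, Vim at 890 to 1069 FPKM. None of 5 leukocyte or 3 endothelial markers reached 1 FPKM, with summed levels of at most 0.0817 and 0.257 FPKM in a library, and Cd3e was listed at 0 in all 4. Of 3 fibroblast markers 2 reached 1 FPKM, and the list summed to 10.9 and 19.8 FPKM in PBS and 6.42 and 5.87 FPKM in 5-FU, mostly Pdgfra, while Lum was at most 0.069 FPKM. The part of that fall in the results was not tested. The labels do not say whether replicates were separate cultures, so p-values measure only the spread between these libraries, which may be technical. In such bulk samples fewer expressing cells and less RNA per cell cannot be told apart.

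After 5-FU most of the recombination and Fanconi genes stood lower, and 3 stood higher. The test took genes that reached 1 FPKM in 2 or more libraries, which 38 of the 39 did. Fancf did so only through its PBS values, while Fancg also reached it in 5-FU replicate 2 (1.12 FPKM). Of these 38, 20 fell, 3 rose (Nbn, Palb2 and Fancb) and 15 did not pass limma's test at an adjusted p under 0.05. The share that fell was 52.6%, where 31.2% of all 11644 tested genes fell, and the share that rose was 7.89%, where 22.1% of all rose. The median log2 difference of the 38, taken as 5-FU minus PBS of log2(FPKM + 1), was -0.56, and that of all tested genes was -0.097. In 27 of the 39 genes both 5-FU libraries lay below both PBS libraries (45.1% of all tested genes did so), in 3 they lay above (35.9%), and in 9 the groups overlapped; over all tested genes 81% did not overlap in either direction. Summed over the 39 genes, the level was 396.0 and 342.0 FPKM in PBS and 253.6 and 253.8 FPKM in 5-FU.

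Of these 23 calls, 9 held under each of the alternatives that tested the gene: the falls of H2afx, Fancf, Bard1, Rad50, Trp53bp1, Mus81, Fance and Blm, and the rise of Nbn. Not all 15 alternatives tested each of these: Fancf was tested in 12, and Trp53bp1 and Mus81 in 14. Those that could not test Fancf were the floor of 5 FPKM on the mean and leaving out either PBS library. The remaining 14 were lost when either 5-FU library was left out, which leaves the PBS pair to supply the error. Without 5-FU replicate 1, 8 were lower (21.1%, against 12.0% of all genes) and 1 higher (2.63%, against 4.58%). Without 5-FU replicate 2 the members' counts were the same, against 11.8% and 4.33% of all genes. Without PBS replicate 1, 24 were lower (64.9%, against 39.9%) and 7 higher (18.9%, against 40.7%). Without PBS replicate 2, 30 were lower (81.1%, against 42.4%) and 3 higher (8.11%, against 35.4%). With quantile normalization 13 genes fell (34.2%, against 24.3% of all genes) and 3 rose (7.89%, against 25.3%), with a median of -0.24 against 0.021. The median of all tested genes was thus 0.118 higher under that scaling than as deposited.

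**Figure D1:**
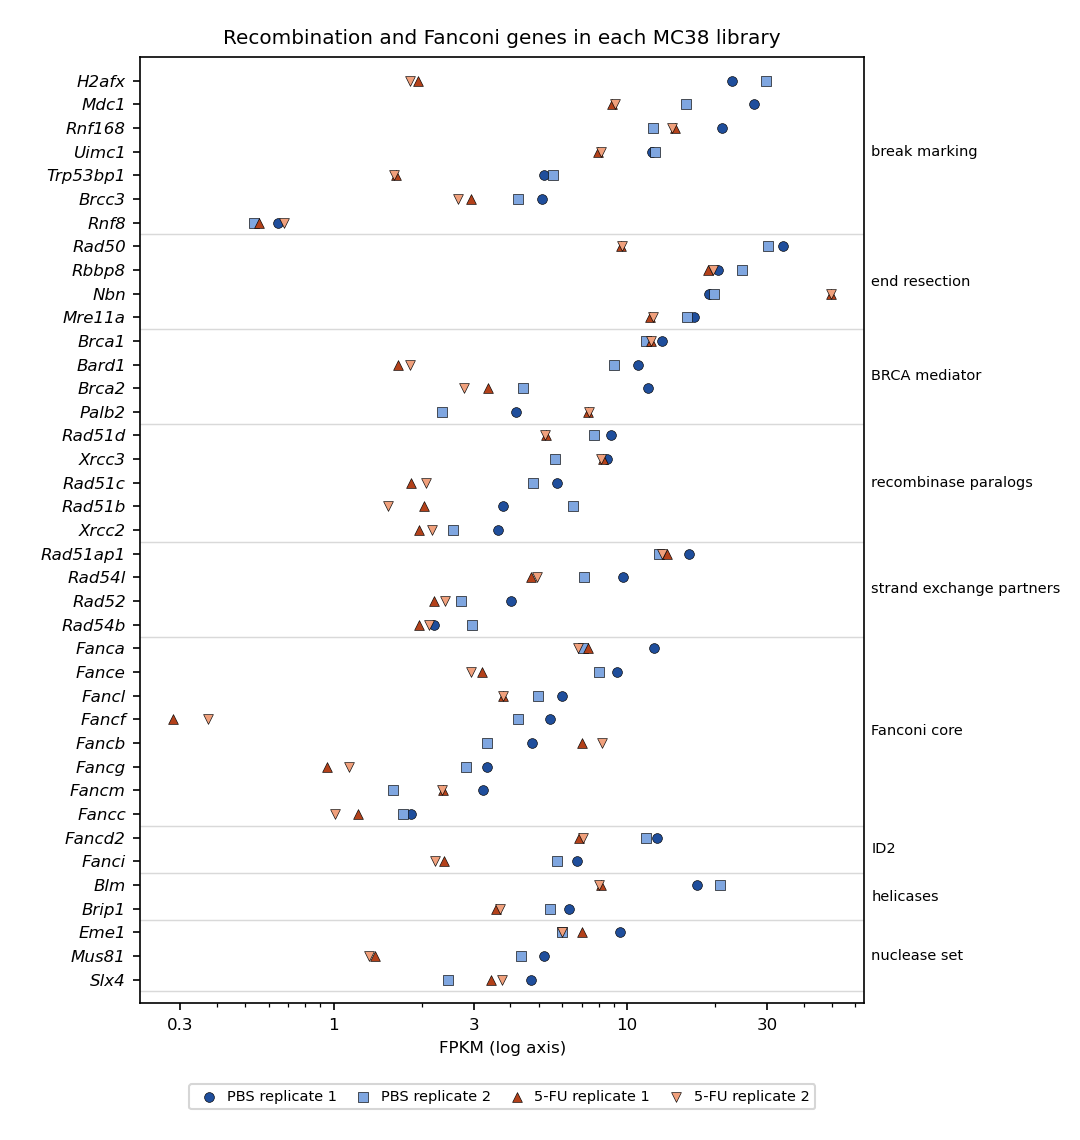
Level of each gene in each of the 4 MC38 libraries, in FPKM on a log axis; circles and squares are PBS replicates 1 and 2, triangles pointing up and down are 5-FU replicates 1 and 2, and genes are grouped by role and ordered by PBS mean within a role. H2afx and Fancf lie far to the left in both 5-FU libraries, Nbn, Palb2 and Fancb lie to the right, and the 5-FU symbols nearly coincide for most genes while the PBS symbols are further apart.

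Among the genes that mark a break in chromatin, 5 fell, 0 rose and 1 did not pass (without adjustment, limma also put 0 higher at p under 0.05). The share that fell was 83.3%, where 31.2% of all tested genes fell and 22.1% rose. H2afx encodes the histone variant H2AX, which is phosphorylated in the chromatin on both sides of a break. It measured 22.7 and 29.7 FPKM in PBS and 1.95 and 1.82 FPKM in 5-FU. Both 5-FU libraries were far below both PBS libraries, a 13.9-fold fall (log2 difference -3.23 ± 0.17 SE, adjusted p = 0.0027), and 18 of the 11644 tested genes fell further on that scale. The values rested on about 1300, 1710, 56 and 52 estimated reads. H2afx is known to give both a polyadenylated transcript and one that ends in a stem loop, and libraries of polyadenylated RNA read mainly the former. Reads in its coding part may be shared with other H2A genes.

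Trp53bp1 encodes 53BP1, which binds modified histones beside a break and limits the trimming of its ends. Its level was 5.22 and 5.62 FPKM in PBS and 1.63 and 1.61 FPKM in 5-FU, and it fell 3.34-fold (log2 difference -1.29 ± 0.13 SE, adjusted p = 0.00374). Mdc1 encodes the adaptor that reads phosphorylated H2AX, at 27.1 and 15.9 FPKM in PBS and 8.89 and 9.11 FPKM in 5-FU. It fell 2.39-fold (adjusted p = 0.0242), a call lost with no low-value filter (0.0843), and its PBS libraries differed from each other by 0.74 log2. Of the exonic bases of Trp53bp1, 15% overlap Tubgcp4 on the opposite strand. Uimc1 (RAP80) and Brcc3 encode parts of the complex that recruits BRCA1 to ubiquitin chains and trims those chains. Uimc1 fell from 12.2 and 12.4 FPKM to 7.95 and 8.15 FPKM, and Brcc3 from 5.13 and 4.25 FPKM to 2.94 and 2.66 FPKM. Both calls were lost after removing the trend with genomic span (adjusted p = 0.339 and 0.0877) or with exonic length (0.0775 and 0.249) and after quantile normalization (0.0787 and 0.254). Brcc3 was also lost without the low-value filter (0.0789).

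The ubiquitin ligases that act upstream of 53BP1 did not pass. Rnf168 measured 21.1 and 12.2 FPKM in PBS and 14.5 and 14.2 FPKM in 5-FU, so that both 5-FU libraries lay between the PBS libraries (log2 difference -0.15, 95% interval -0.86 to 0.55). Its sign followed the PBS library kept: it was 0.215 (adjusted p = 0.0244) without PBS replicate 1 and -0.524 (adjusted p = 0.000129) without PBS replicate 2. Rnf8, the ligase that acts first, was too low to test, at 0.648 and 0.537 FPKM in PBS and 0.557 and 0.678 FPKM in 5-FU. Without the low-value filter its log2 difference was 0.022 (adjusted p = 0.866). Rnf8 shares 13.2% of its exonic bases with Gm28043 on the same strand, so its value is uncertain.

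The end-resection genes moved in both directions. MRE11, RAD50 and NBS1 (the product of Nbn) form the complex that holds broken DNA ends and starts their trimming. Nbn measured 19.1 and 19.8 FPKM in PBS and 49.5 and 49.6 FPKM in 5-FU, a 2.55-fold rise (log2 difference 1.31 ± 0.10 SE, adjusted p = 0.00278). Rad50 measured 33.9 and 30.4 FPKM in PBS and 9.54 and 9.64 FPKM in 5-FU, a 3.35-fold fall (log2 difference -1.64 ± 0.12 SE, adjusted p = 0.0027). The groups did not overlap for either gene, and replicates lay within 0.16 log2 of each other. Mre11a fell less, from 16.98 and 15.98 FPKM to 11.9 and 12.3 FPKM (1.36-fold, adjusted p = 0.0364). That call was lost under median-ratio scaling (adjusted p = 0.0751), quantile normalization (0.0979), and removal of the trend with span (0.523) or exonic length (0.289). Rbbp8 encodes CtIP, the cofactor that sets off MRE11 cutting, and measured 20.4 and 24.7 FPKM in PBS and 18.8 and 19.6 FPKM in 5-FU. It did not pass (log2 difference -0.21, 95% interval -0.58 to 0.15), while without PBS replicate 1 it did (adjusted p = 0.00162). The 4 genes together summed to 90.4 and 90.8 FPKM in PBS and 89.8 and 91.2 FPKM in 5-FU, nearly the same sum with Nbn in place of Rad50 as its largest term.

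**Figure D2:**
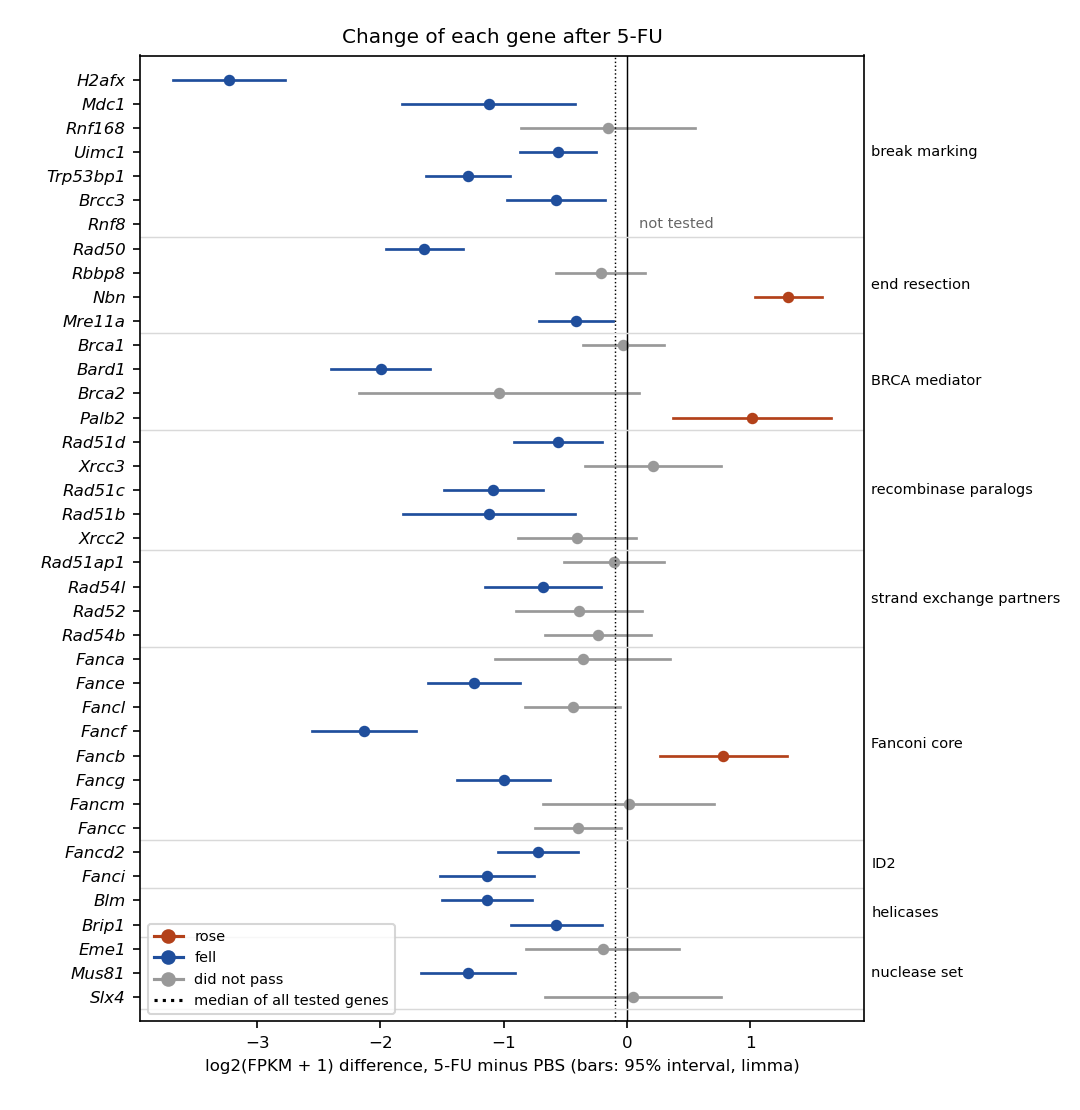
Log2(FPKM + 1) difference, 5-FU minus PBS, for each gene by role, with 95% intervals from limma; red genes rose, blue genes fell, grey genes did not pass, and the dotted line is the median of all tested genes. Nbn, Palb2 and Fancb stand to the right of 0 in roles whose other called genes stand to the left, and Brca2 has the widest interval.

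The BRCA genes that load the recombinase split likewise, with 1 rise, 1 fall and 2 that did not pass. Thus 25% rose and 25% fell, near the 22.1% and 31.2% of all tested genes. Bard1 encodes the obligate partner of BRCA1 in its ubiquitin ligase. It measured 10.9 and 9.03 FPKM in PBS and 1.65 and 1.83 FPKM in 5-FU, a 5.72-fold fall (log2 difference -1.995 ± 0.15 SE, adjusted p = 0.00278). Brca1 itself measured 13.2 and 11.6 FPKM in PBS and 12.1 and 12.1 FPKM in 5-FU, both within the PBS range. Its log2 difference was -0.030 with a 95% interval of -0.36 to 0.30, and the sign turned under 5 alternatives without a call. Palb2, which encodes the bridge between BRCA1 and BRCA2, measured 4.17 and 2.33 FPKM in PBS and 7.39 and 7.39 FPKM in 5-FU. It rose 2.27-fold (log2 difference 1.015 ± 0.24 SE, adjusted p = 0.0247), a call lost without the low-value filter (0.0831). Brca2, whose product places the recombinase on single-stranded DNA, measured 11.8 and 4.43 FPKM in PBS and 3.37 and 2.77 FPKM in 5-FU. The PBS libraries differed 1.24 log2 from each other, the widest gap of the 38 tested genes, and Brca2 did not pass although the groups do not overlap (log2 difference -1.04, adjusted p = 0.102). It passed without PBS replicate 1 (-0.421, adjusted p = 0.00807) and without PBS replicate 2 (-1.66, adjusted p = 8.78e-07), where the closer 5-FU pair supplies the error.

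The 5 recombinase paralogs, which stabilise the filament, held 3 falls and 0 rises (0 also by limma's p without adjustment). The falls were 60% of them, where 31.2% of all tested genes fell and 22.1% rose. Rad51c measured 5.79 and 4.76 FPKM in PBS and 1.84 and 2.06 FPKM in 5-FU (2.71-fold lower, adjusted p = 0.00639). Rad51b went from 3.78 and 6.53 FPKM to 2.03 and 1.53 FPKM (2.902-fold lower, adjusted p = 0.0237). It is the longest of the 39 genes, at 517.4 kb, and its difference was -0.368 (adjusted p = 0.189) after removal of the span trend and -0.824 (0.0737) with quantile normalization. Its call was also lost without the low-value filter (0.0871). Rad51d fell from 8.82 and 7.69 FPKM to 5.28 and 5.24 FPKM, a call lost with quantile normalization (adjusted p = 0.158). Xrcc2 and Xrcc3 did not pass. Xrcc2 measured 3.63 and 2.54 FPKM in PBS and 1.95 and 2.17 FPKM in 5-FU, lower in both but within the error of the PBS pair (95% interval -0.88 to 0.073; adjusted p = 0.00132 without PBS replicate 2). Xrcc3 measured 8.58 and 5.68 FPKM in PBS and 8.29 and 8.18 FPKM in 5-FU, both inside the PBS range (95% interval -0.34 to 0.76). It passed as higher without PBS replicate 1 (0.468, adjusted p = 0.000487).

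Of 4 partners in strand exchange and annealing, 1 fell (25%, where 31.2% of all tested genes fell). Rad54l, a motor protein gene that drives strand invasion, went from 9.70 and 7.16 FPKM to 4.72 and 4.92 FPKM (1.75-fold lower, adjusted p = 0.0312). Its call was lost with quantile normalization (adjusted p = 0.127), after removal of the exonic length trend (0.141) and without the low-value filter (0.081). Lrrc41 overlaps 15.4% of its exonic bases on the opposite strand. Rad51ap1, whose product stimulates strand pairing, measured 16.3 and 12.9 FPKM in PBS and 13.6 and 13.1 FPKM in 5-FU, inside the PBS range (95% interval -0.51 to 0.30). Rad52, a strand-annealing gene, measured 4.02 and 2.71 FPKM in PBS and 2.195 and 2.403 FPKM in 5-FU. Rad54b, a relative of Rad54l, measured 2.21 and 2.97 FPKM in PBS and 1.95 and 2.12 FPKM in 5-FU. Both were lower in each 5-FU library and neither passed (adjusted p = 0.153 and 0.278). Without PBS replicate 2, Rad52 and Rad51ap1 passed as lower (adjusted p = 0.000904 and 0.0101), and without PBS replicate 1 Rad54b did (0.0139). Rad54b shares 35.8% of its exonic bases with Fsbp on the same strand, so its value is uncertain, although Fsbp itself was listed at a mean of 0.186 FPKM.

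In the Fanconi core complex, 3 of 8 genes fell, 1 rose and 4 did not pass. The shares were 37.5% and 12.5%, where 31.2% of all tested genes fell and 22.1% rose. Fancf encodes an adaptor that joins parts of the complex. It measured 5.45 and 4.25 FPKM in PBS and 0.284 and 0.373 FPKM in 5-FU, a 14.8-fold fall (log2 difference -2.13 ± 0.16 SE, adjusted p = 0.00277). These levels correspond to about 381, 299, 10 and 13 estimated reads, so the 5-FU level is known only roughly. In Fancf 15% of the exonic bases overlap Gas2 on the opposite strand. Fance, which links the core to FANCD2, fell from 9.24 and 8.04 FPKM to 3.21 and 2.95 FPKM (2.80-fold, adjusted p = 0.00453). Fancg, another adaptor, fell from 3.34 and 2.82 FPKM to 0.947 and 1.12 FPKM (2.97-fold, adjusted p = 0.00671).

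Fancb, an X-linked gene whose product forms the catalytic part of the core with FANCL, went the other way. It measured 4.76 and 3.33 FPKM in PBS and 7.002 and 8.193 FPKM in 5-FU, a 1.88-fold rise (log2 difference 0.78 ± 0.20 SE, adjusted p = 0.0279). The call was lost without the low-value filter (adjusted p = 0.0809). Fancl, the ubiquitin ligase of the complex, measured 6.002 and 4.988 FPKM in PBS and 3.77 and 3.78 FPKM in 5-FU and just missed the threshold (adjusted p = 0.0586; 0.0493 with eBayes without trend, 0.0105 and 0.000484 without PBS replicates 1 and 2). Fancc, at 1.84 and 1.72 FPKM in PBS and 1.211 and 1.008 FPKM in 5-FU, likewise just missed it (adjusted p = 0.058; 0.0467 and 0.0279 without PBS replicates 1 and 2). After removal of the span trend both turned slightly higher (0.02 for Fancl and 0.245 for Fancc), without passing. Fanca and Fancm overlapped between the groups. Fanca measured 12.4 and 7.07 FPKM in PBS and 7.37 and 6.83 FPKM in 5-FU, passing as lower without PBS replicate 2 (adjusted p = 3.7e-05). Fancm, the translocase that anchors the core on DNA, measured 3.22 and 1.59 FPKM in PBS and 2.35 and 2.33 FPKM in 5-FU. Its difference was 0.365 (adjusted p = 0.0208) without PBS replicate 1 and -0.337 (0.023) without PBS replicate 2.

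Both genes of the pair that the core complex modifies fell, where 31.2% of all tested genes did. Fancd2 went from 12.7 and 11.6 FPKM to 6.86 and 7.06 FPKM (1.75-fold, adjusted p = 0.0102), and Fanci from 6.76 and 5.75 FPKM to 2.37 and 2.21 FPKM (2.73-fold, adjusted p = 0.00529). No PBS library was below a 5-FU library for either gene. The call of Fancd2 was lost after removal of the trend with exonic length (adjusted p = 0.0561) or with span (0.0687). Polg overlaps 16% of the exonic bases of Fanci on the opposite strand.

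Both helicase genes fell as well, where 31.2% of all tested genes did. Blm, which encodes the Bloom syndrome helicase that dissolves joined molecules, measured 17.3 and 20.7 FPKM in PBS and 8.13 and 8.01 FPKM in 5-FU (2.36-fold lower, log2 difference -1.14 ± 0.14 SE, adjusted p = 0.00505). Brip1, which encodes the BRCA1-bound helicase FANCJ, went from 6.35 and 5.46 FPKM to 3.58 and 3.68 FPKM (1.63-fold lower, adjusted p = 0.0261). Brip1 spans 143.1 kb, and its difference was 0.003 (adjusted p = 0.987) after removal of the span trend. Quantile normalization also ended that call (adjusted p = 0.215), as did dropping the low-value filter (0.0581) and removing the exonic length trend (0.183).

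Of the structure-specific nuclease genes, Mus81 fell and the others overlapped between the groups. Thus 33.3% fell, where 31.2% of all tested genes did. MUS81 cuts branched DNA as a dimer with EME1, on the scaffold SLX4. Mus81 measured 5.20 and 4.35 FPKM in PBS and 1.38 and 1.32 FPKM in 5-FU (3.54-fold lower, log2 difference -1.29 ± 0.14 SE, adjusted p = 0.00436). Efemp2, at a mean of 33.1 FPKM, overlaps 4.9% of the exonic bases of Mus81 on the opposite strand. Lrrc59 (mean 127.9 FPKM) and Mrpl27 (27.7 FPKM) overlap 8.0% and 2.7% of those of Eme1 in the same way. Eme1 measured 9.48 and 6.01 FPKM in PBS and 7.01 and 5.99 FPKM in 5-FU (95% interval of the log2 difference -0.82 to 0.42; adjusted p = 0.00148 without PBS replicate 2). Slx4 measured 4.71 and 2.46 FPKM in PBS and 3.44 and 3.74 FPKM in 5-FU. Its difference was 0.408 (adjusted p = 0.00627) without PBS replicate 1 and -0.316 (0.0183) without PBS replicate 2.

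A ratio of 2 genes within a library does not change when the whole library is multiplied by 1 factor, as in median-ratio scaling, although quantile normalization can change it. Such ratios were taken from the deposited FPKM for proteins that work as partners. The pairs were chosen with the values known, and the ratios are given without a test, since the smallest two-sided p of an exact test on 2 and 2 libraries is 0.333. Nbn over Rad50 was 0.561 and 0.652 in PBS and 5.18 and 5.15 in 5-FU. Nbn over Mre11a was 1.12 and 1.24 in PBS and 4.14 and 4.04 in 5-FU. In PBS Rad50 was thus the most abundant transcript of that complex, and in 5-FU Nbn was. Brca1 over Bard1 was 1.21 and 1.29 in PBS and 7.32 and 6.62 in 5-FU. Palb2 over Brca2 was 0.353 and 0.527 in PBS and 2.20 and 2.67 in 5-FU. Eme1 over Mus81 was 1.82 and 1.38 in PBS and 5.07 and 4.54 in 5-FU. Each of these 5 ratios lay higher in both 5-FU libraries than in both PBS libraries. Fancd2 over Fanci moved less, from 1.87 and 2.02 to 2.89 and 3.19, and Mre11a over Rad50 went from 0.5 and 0.526 to 1.25 and 1.27. Rad51d over Xrcc2, partners among the paralogs, overlapped between the groups, at 2.43 and 3.03 in PBS and 2.7 and 2.42 in 5-FU. The other pairs computed were Fancb over Fancl (0.793 and 0.667, then 1.86 and 2.17), Fance over Fancf (1.7 and 1.89, then 11.3 and 7.9) and Palb2 over Brca1 (0.317 and 0.201, then 0.61 and 0.612).

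**Figure D3:**
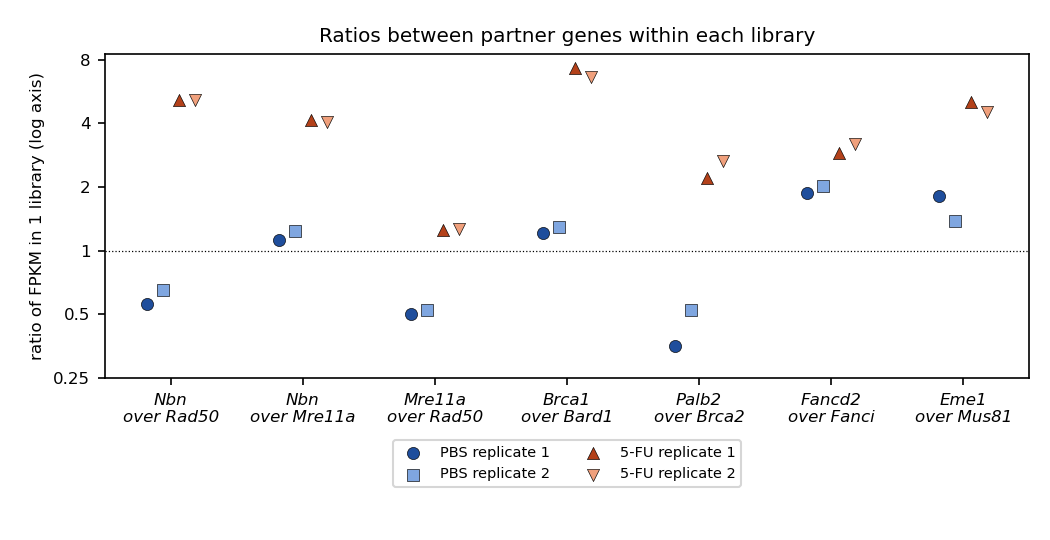
Ratio of the FPKM of 2 partner genes within 1 library, on a log axis, for 7 pairs; symbols mark the 4 libraries and the dotted line marks equal levels. The ratios of Nbn to Rad50, Mre11a to Rad50 and Palb2 to Brca2 cross from below 1 in both PBS libraries to above 1 in both 5-FU libraries.

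The order of levels shifted accordingly. In PBS the highest means were those of Rad50 (32.1 ± 2.52 FPKM, SD, n = 2 per group), H2afx (26.2 ± 4.91), Rbbp8 (22.6 ± 3.002), Mdc1 (21.5 ± 7.96) and Nbn (19.4 ± 0.521), and the neighbours from H2afx to Nbn lay within their spread. In 5-FU they were Nbn (49.5 ± 0.129), Rbbp8 (19.2 ± 0.566), Rnf168 (14.4 ± 0.244), Rad51ap1 (13.4 ± 0.371) and Mre11a (12.1 ± 0.246). Neighbours among these 5 differed by more than their SDs, while Mre11a and the next gene, Brca1 (12.1 ± 0.0286), did not. H2afx went from rank 2 to rank 31 of the 39 genes, Bard1 from 13 to 33 and Fancf from 27 to 39. Palb2 went from rank 33 to 13 and Fancb from 30 to 12. The lowest mean in PBS was that of Rnf8 (0.592 ± 0.0782 FPKM), and in 5-FU that of Fancf (0.328 ± 0.0628).

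The 2 PBS libraries differed in these genes in a shared direction. PBS replicate 1 was the higher in 31 of the 39 genes, by a median of 0.219 log2, where it was the higher in 57.3% of all tested genes, by a median of 0.0673 log2. In size the gap was near that of all genes. The members' median absolute log2 difference was 0.256 in PBS and 0.0549 in 5-FU, against 0.271 and 0.0729 over all tested genes. In 10 of the 38 tested genes the PBS libraries were over 0.5 log2 apart, and in 0 were the 5-FU libraries. Those 10 were Brca2, Rnf168, Mdc1, Fanca, Slx4, Fancm, Rad51b, Palb2, Eme1 and Xrcc3, and 7 of them did not pass the comparison of 5-FU with PBS. The part of this gap in the results was not tested beyond leaving out each library.

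**Figure D4:**
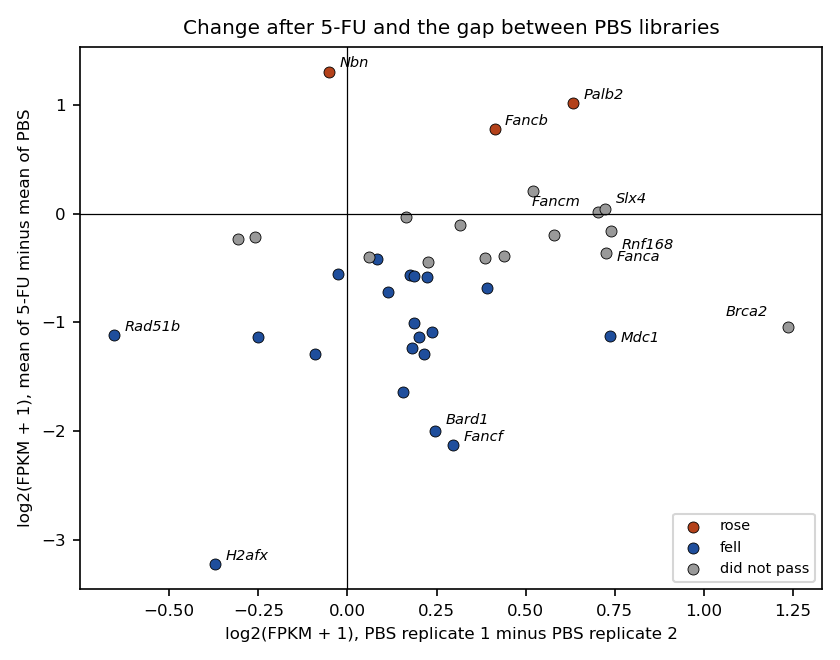
Change after 5-FU (vertical axis, log2(FPKM + 1), 5-FU mean minus PBS mean) against the gap between the PBS libraries (horizontal axis, PBS replicate 1 minus 2) for the 38 tested genes, coloured by call. Most genes lie to the right of 0 on the horizontal axis, Brca2 furthest at 1.24, and the largest changes (H2afx, Fancf, Bard1, Rad50, Nbn) have gaps under 0.4 in size.

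Across the series long genes were lower more often after 5-FU, and the recombination and Fanconi genes were set against that trend. Of 17 tested members spanning at least 50 kb, 10 fell and 0 rose (58.8% fell), where 49.4% of 2737 tested protein-coding genes of that span fell and 256 rose. Of 12 members spanning under 20 kb, 7 fell and 1 rose (58.3% fell), where 1158 of 4634 such genes fell and 1252 rose. Of 9 members in between, 3 fell and 2 rose (33.3% fell), where 31.0% of 2995 fell and 588 rose. Over the 38 members span and log2 difference had a Spearman rho of -0.0185 (Pearson r = 0.252 with log10 span), and over 10366 protein-coding genes rho was -0.251. These correlations are across genes of the same 4 libraries and carry no p. After removal of the span trend 14 members fell (36.8%, against 24.7% of all tested genes) and 3 rose (7.89%, against 25.1%). The median log2 difference was then -0.35, against 0.013 for all tested genes.

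The 2 largest falls belonged to the shortest genes. H2afx (chromosome 9, 44334694 to 44336077, plus strand, GRCm38) and Fancf (chromosome 7, 51860577 to 51862267, minus strand) each consist of 1 exon, of 1.384 and 1.691 kb, and no other tested member does. Of 177 tested protein-coding genes annotated with 1 exon only, 78 fell and 27 rose (44.1% fell), with a median log2 difference of -0.59. The pair was singled out after its values were seen. The longest falling genes with firm calls were Blm (80.4 kb), Trp53bp1 (78.1 kb) and Bard1 (75.6 kb; chromosome 1, 71027498 to 71103146, minus strand). Nbn (chromosome 4, 15957925 to 15992589, plus strand) spans 34.7 kb and Rad50 (chromosome 11, 53649519 to 53707319, minus strand) 57.8 kb.

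**Figure D5:**
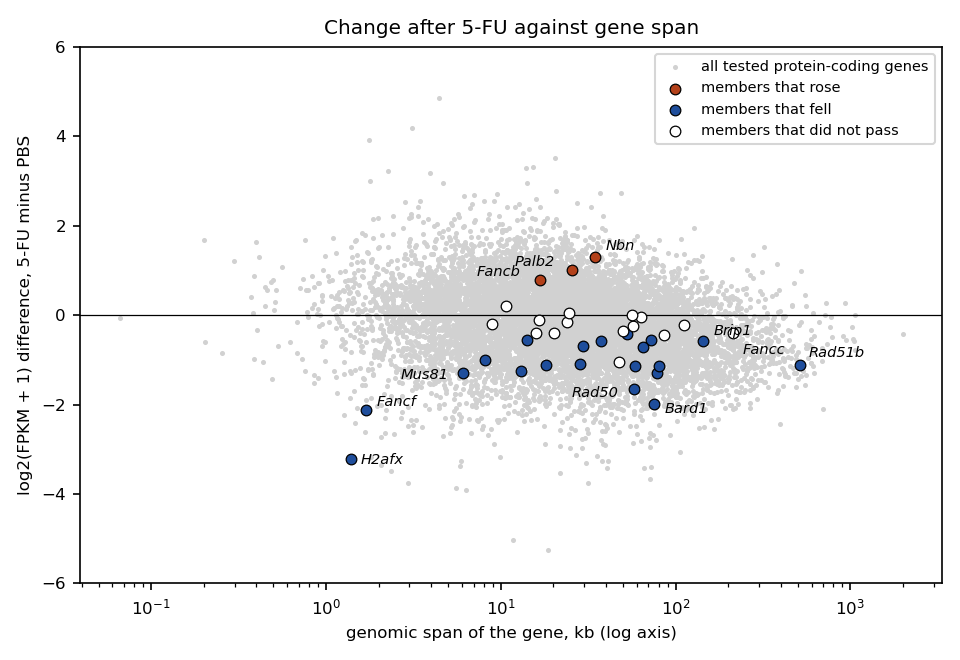
Log2(FPKM + 1) difference, 5-FU minus PBS, against genomic span in kb (log axis) for all tested protein-coding genes (grey) and the 38 tested members (red rose, blue fell, white did not pass). H2afx and Fancf, the 2 shortest members, have the lowest differences, and Rad51b, the longest, fell by 1.12.

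Promoters of 31 of the 39 genes were matched in a RefSeq table (GRCm38.p6), each window running from 250 bases before the start site to 50 after it. The others were Rad51d, Rad54b, Xrcc2, Fancd2, Rad50, Nbn, Rbbp8 and H2afx. Both strands were searched for CCAAT (the box bound by the factor NF-Y), for the E2F sites TTTCGCGC and TTTGGCGC, and for the cell cycle element CHR, TTTGAA. The box CCAAT was found in 20 of 31 members (64.5%), in 39.9% of 8537 tested genes and in 37.8% of all 27025 promoters. It was in 10 of 16 members that fell (62.5%), in 2 of 2 that rose and in 8 of 13 that did not pass or were not tested (61.5%). TTTGAA was in 4 of 31 members (12.9%) and in 11.6% of tested genes. Of the E2F sites 1 was found, in Rad51c after the start site, so 3.23% of members held one and 1.71% of tested genes did. A match is a string of letters and not a shown binding site. The start site used lay 174, 221 and 949 bases from the annotated one in Bard1, Eme1 and Fancl. Each was counted without the box, although 174, 221 and 250 of their 250 upstream bases are annotated exon.

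The 250 bases upstream of the start site are given for 5 genes, 5′ to 3′ on the gene's strand, with CCAAT or its reverse complement in capitals. They set genes that fell with the box (Fance, Mdc1) beside genes that fell and lack it (Trp53bp1, Mus81) and beside Xrcc3, which holds 6 copies and did not pass, and were chosen among windows with at most 30 bases of annotated exon.
Fance, chr17:28313280-28313529, plus strand: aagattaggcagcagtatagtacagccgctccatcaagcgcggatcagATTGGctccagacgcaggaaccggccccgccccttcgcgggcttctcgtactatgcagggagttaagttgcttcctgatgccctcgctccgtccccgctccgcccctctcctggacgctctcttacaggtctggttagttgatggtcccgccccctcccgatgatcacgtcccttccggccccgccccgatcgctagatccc
Mdc1, chr17:35841248-35841497, plus strand: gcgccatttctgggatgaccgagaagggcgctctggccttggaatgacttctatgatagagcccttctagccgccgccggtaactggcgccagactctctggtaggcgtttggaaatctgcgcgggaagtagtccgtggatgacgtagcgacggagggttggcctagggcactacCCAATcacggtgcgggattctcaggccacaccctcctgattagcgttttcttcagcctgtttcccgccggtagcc
Trp53bp1, chr2:121271408-121271657, minus strand: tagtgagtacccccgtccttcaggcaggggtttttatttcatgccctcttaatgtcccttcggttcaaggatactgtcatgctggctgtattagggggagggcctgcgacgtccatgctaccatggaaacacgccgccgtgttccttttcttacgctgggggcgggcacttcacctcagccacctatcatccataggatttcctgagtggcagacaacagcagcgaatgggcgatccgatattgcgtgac
Mus81, chr19:5488380-5488629, minus strand: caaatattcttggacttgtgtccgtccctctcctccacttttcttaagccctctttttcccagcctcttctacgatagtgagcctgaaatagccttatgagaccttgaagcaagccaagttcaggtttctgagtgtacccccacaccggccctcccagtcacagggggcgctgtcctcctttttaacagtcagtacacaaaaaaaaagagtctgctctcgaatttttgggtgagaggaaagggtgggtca
Xrcc3, chr12:111813880-111814129, minus strand: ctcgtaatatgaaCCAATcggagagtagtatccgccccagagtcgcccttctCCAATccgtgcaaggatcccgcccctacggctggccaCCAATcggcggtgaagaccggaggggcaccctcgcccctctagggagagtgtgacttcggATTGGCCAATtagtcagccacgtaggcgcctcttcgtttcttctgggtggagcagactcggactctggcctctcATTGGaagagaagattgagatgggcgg
Among the falling genes named here, copies of the box and the size of the fall gave no single order. Fancf and Brip1, with 3 copies each, fell 14.8-fold and 1.63-fold, and Fance and Mdc1, with 1 each, fell 2.80-fold and 2.39-fold. Trp53bp1, Mus81 and Bard1, with none in the window searched, fell 3.34-fold, 3.54-fold and 5.72-fold. For Bard1, 174 of the 250 upstream bases are its own annotated exon, so less of its promoter was searched. All 250 upstream bases of Fancf are annotated exon of Gas2.

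Other genes of the same pathways, outside the 39, were read beside them. Of 38 listed, 32 were tested, of which 8 fell, 6 rose and 18 did not pass, where 31.2% of all tested genes fell and 22.1% rose. Their median log2 difference was -0.063 and that of all tested genes -0.097, so the list lay near the background, and its difference from the 39 genes was not tested. Rpa2, a subunit of the protein that coats single-stranded DNA, rose from 25.1 and 16.5 FPKM to 55.3 and 56.4 FPKM. The resection nuclease gene Exo1, at 18.2 and 8.85 FPKM in PBS, rose 2.23-fold (adjusted p = 0.0387), a call lost without the low-value filter (0.121). Polq, which encodes the polymerase of an alternative end-joining route, rose 2.45-fold (adjusted p = 0.0114). The ubiquitin ligase gene Rad18 fell 2.99-fold, Rif1, which acts with 53BP1, 2.59-fold and Rmi1, a partner of the Bloom helicase, 2.65-fold. This list held 4 rises and 5 falls without the low-value filter, where 10.0% of all genes rose and 12.0% fell. After removal of the exonic length trend it held 7 and 5 (25.5% and 24.5% of all genes). Its counts also moved when 1 library was left out, as did those over all genes.

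Among 12 genes of end joining, the route that rejoins breaks without a template, 7 fell, 1 rose and 4 did not pass, with a median of -0.54. Of all tested genes 31.2% fell and 22.1% rose, with a median of -0.097. The kinase gene Prkdc measured 2.57 and 2.02 FPKM in PBS and 0.504 and 0.517 FPKM in 5-FU (4.502-fold lower), and so was tested only through its PBS values. The polymerase gene Polm fell 2.28-fold, while the polymerase gene Poll rose 1.64-fold. The count was 3 falls and 1 rise with quantile normalization, where 24.3% of all genes fell and 25.3% rose. It was the same at a mean of 5 FPKM or more (28.2% and 23.2% of all genes). After removal of the span trend it was 5 falls and 2 rises (24.7% and 25.1%). The count also moved when a 5-FU library was left out, as did that over all genes. Whether the median of this list differs from that of the recombination and Fanconi genes was not tested.

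Many recombination and Fanconi genes are known to be transcribed most in S phase, so 16 S phase genes were read beside them. Of these 6 rose, 1 fell and 9 did not pass, with a median log2 difference of 0.298. Over all tested genes 22.1% rose and 31.2% fell, and the median was -0.097. The helicase subunit genes Mcm3 and Mcm4 rose 1.97-fold each (adjusted p = 0.0153 and 0.04635) and the cyclin gene Ccne2 2.07-fold (0.0232). The PBS libraries stood apart in Mcm4 (80.8 and 42.7 FPKM) and in Ccne2 (27.0 and 16.8 FPKM). E2f1, which encodes a transcription factor of S phase entry, fell 2.39-fold (adjusted p = 0.00514). The count was 1 rise and 1 fall without the low-value filter, where 10.0% of all genes rose and 12.0% fell. It was 3 rises and 2 falls with quantile normalization (25.3% and 24.3% of all genes). After removal of the span trend it was 6 and 2 (25.1% and 24.7%). The count also moved when 1 library was left out, as did that over all genes. Whether this list differs from the recombination and Fanconi genes, and whether cell cycle phase has a part in their change, was not tested.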

How the data were processed

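Polyadenylated RNA of MC38 cells was sequenced after PBS or 5-FU, 2 libraries per group. The authors deposited 1 table of FPKM values; STAR 2.4.1a, Picard 2.9.0 and build GRCm38 appear, without their roles, in the submitters' processing notes. The sources used here do not name the counting program, annotation release or strand setting. Reads of overlapping genes therefore cannot be separated. The test of 5-FU against PBS was limma 3.58.1 in R 4.3.3 (eBayes, trend on) on log2(FPKM + 1), over genes that reached 1 FPKM in 2 or more libraries, and p-values (two-sided) were adjusted by Benjamini-Hochberg over all of them. All adjusted p, standard errors and 95% intervals are limma's; folds are ratios of mean FPKM, and log2 differences understate changes of low genes. The script was tested on simulated data. The members and lists were chosen with earlier results of these data known. All 39 members are named; of each other list, up to 3 genes per direction with the largest differences, of which 1 is not reported here. Spans, exons and coordinates are from GENCODE M21 (GRCm38), in which 36379 of the 36445 table entries were found; 26 symbols stored as dates were restored by gene ID. Depth was estimated from FPKM steps, with 63.2% to 65.2% of values under 100 reads then within 0.02 of a whole read, so read numbers are estimates. On estimated reads the mean chi-square per gene between replicates was 13.9 for PBS and 1.63 for 5-FU (over 2800 and 3522 genes). Because the read numbers are estimates, the 1.63 does not settle whether the 5-FU libraries differ by more than counting error. They were kept as 2 samples, which does not show that they came from separate cultures.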

Additional observations from a re-analysis of the deposited data

How the results depend on the processing

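Alternatives were pseudocounts of 0.1 and 0.5, no low-value filter, a floor of 5 FPKM on the mean, scaling by median ratios or quantiles, robust or trend-free eBayes, the replicate number as a block, trends with exonic length or genomic span removed, and leaving out each library; the comparison lists were run under them after seeing the data. Where 1 library of a group is left, its spread is taken from the other group. Members lower were 11 at a mean of at least 5 FPKM (22 tested) and 13 with quantile normalization, and members higher were 1 with no filter. Leaving out 1 library gave 8 to 30 lower and 1 to 7 higher. The members' median was -0.639 with a pseudocount of 0.1 (-0.106 over all tested genes), -0.448 with median-ratio scaling (0.013) and -0.243 with quantile normalization (0.021). It was -0.283 with exonic length removed (0.014) and -0.35 with genomic span removed (0.013). With 1 library left out it was -0.65 to -0.421 (-0.15 to 0.008 over all tested genes). Over all genes 2158 were lower at a mean of at least 5 FPKM (7651 tested), and leaving out 1 library gave 481 to 4428 higher and 1311 to 4624 lower. With the replicate number as a block, 3 members rose and 19 fell: Brca2 passed (adjusted p = 0.019) and Mre11a (0.0871) and Brip1 (0.051) did not. The labels do not say that the numbers mark a shared culture, and same-numbered deviations had r = -0.0101 across genes. The sign of these differences turned. With median-ratio scaling Brca1 was 0.086 and Rad51ap1 0.011. With quantile normalization Brca1 was 0.134, Rad51ap1 0.022, Rad54b 0.047 and Eme1 0.102. With exonic length removed Brca1 was 0.36, Rad51ap1 0.104, Rad54b 0.022, Fanca 0.039, Rbbp8 0.291 and Rnf168 0.023. With genomic span removed Brca1 was 0.348, Rad54b 0.115, Fancc 0.245, Fancl 0.02, Brip1 0.003 and Rbbp8 0.312. Without PBS replicate 1, Brca1 was 0.053, Rad51ap1 0.052, Fanca 0.005, Eme1 0.093 and Rnf168 0.215. The same genes without PBS replicate 2 were -0.112, -0.265, -0.722, -0.486 and -0.524. Without PBS replicate 2, Xrcc3 was -0.052, Fancm -0.337 and Slx4 -0.316 (0.468, 0.365 and 0.408 without PBS replicate 1), and without 5-FU replicate 2 Slx4 was -0.002. The cause was not tested. Over the 15 alternatives 450 of the members' values kept direction and side of the threshold. Of the others 27 turned sign, some of them across the threshold (Rnf168, Fancm, Slx4 and Brip1), and with the sign kept 56 lost the call and 19 gained one. Depth limits Fancf most, at 10 and 13 estimated reads in 5-FU.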
